A study of Mus musculus with 9 samples.

Results

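Matricellular proteins are secreted into the extracellular matrix without forming its fibres. They bind collagens, growth factors and cell surface receptors at the same time, and so tune how a cell attaches, spreads and receives signals. Fibroblasts are a main source of several of them, and many are abundant in the embryo, low in resting adult tissue and high again in wounds. The genes described here encode 4 thrombospondins (Thbs1, Thbs2, Thbs3 and Comp), the tenascins Tnc and Tnxb, the SPARC family proteins Sparc and Sparcl1, periostin (Postn) and osteopontin (Spp1). Members were all probe sets to which the platform annotation gives one of these 10 symbols. That annotation gave 16 of 45101 probe sets, 15 with a single symbol and 1 shared with the gene Pald1, and they covered 9 of the 10 genes. Spp1 was not analysed here.

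The data are 9 expression arrays of mouse embryonic fibroblasts (MEFs), primary cultures grown from female E12.5 embryos in DMEM. The 3 lines are an Oga knockout (KO), an Oga heterozygote (Het) and a wild type (WT), with 3 arrays each. Oga encodes O-GlcNAcase, which takes the sugar O-GlcNAc off nuclear and cytoplasmic proteins, and the comparisons ask what its loss does to gene expression. Per the series' design text, the parents of the heterozygous mice were males with a floxed Oga allele, on a background written there as C57B1/6, and females of the strain B6129-Tgn(MMTV-Cre)1Mam, whose Cre is driven by the mouse mammary tumour virus promoter. Heterozygotes were then intercrossed to give embryos of all 3 genotypes. The sources used here do not say whether the embryos carried Cre.

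The same text calls the 3 arrays per line technical replicates, and each genotype has 1 line code, so each genotype is 1 culture. Every p-value below therefore measures the spread between arrays of a culture, and genotype cannot be told apart from any other difference between the cultures. At its most abundant probe set Oga read 6.03, 6.08 and 6.08 on the KO arrays, 11.16 on each Het array and 11.89, 11.92 and 11.95 on the WT arrays, on the deposited log2 scale. All 12 fibroblast markers were measured, with mean values over the list of 12.52 to 12.57 in the KO line, 12.86 to 12.89 in the Het line and 12.90 to 12.91 in the WT line. In KO against WT 1 of the 12 was called: Pdgfra, a growth factor receptor of fibroblast precursors, fell by a log2 difference of -2.55. The other 11 were not called, and the median difference over the list was -0.12. In the same comparison 2.58% of all genes were called lower. No array stood apart from the others of its line: correlations within lines ran from 0.997 to 0.999.

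Differences were tested with limma across 12962 genes, each represented by its probe set with the highest mean, after probe sets in the lowest 40% by mean (below 6.22) were left out. A gene or probe set was called at a Benjamini-Hochberg adjusted p below 0.05 together with a difference of at least 2-fold. The words "rose" and "fell" are used of called genes and called probe sets alone. Tnxb was below the filter, so 8 of the 9 measured genes entered this test. A second fit over all 45037 probe sets that are not controls gave values for every one of the 16 probe sets.

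At this threshold few of the genes differed between lines. Comp fell in both the KO and the Het line, Sparcl1 fell in the Het line, and 1 of the 2 Tnc probe sets rose in the KO line. In the KO line 1 of 8 genes, Comp, was called against WT, where 3.56% of all genes were called. Between Het and WT 2 of 8 were called, with 0.255% of all genes, and between KO and Het 0 of 8 in limma, with 2%. In that last comparison 6 of the 8 passed the adjusted p alone, as did 52.3% of all genes, and 7 had an unadjusted p below 0.05. The share over all genes at an unadjusted p was not computed, so nothing is read from such counts, here or below. Passing the adjusted p alone was common: against WT it held for 6 of 8 genes in KO, where 53.1% of all genes passed, and for 3 of 8 in Het, where 34.4% did. The median difference over the 8 genes was -0.23 for KO minus WT, beside -0.03 over all genes, and -0.09 for Het minus WT, beside -0.01.

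**Figure D1:**
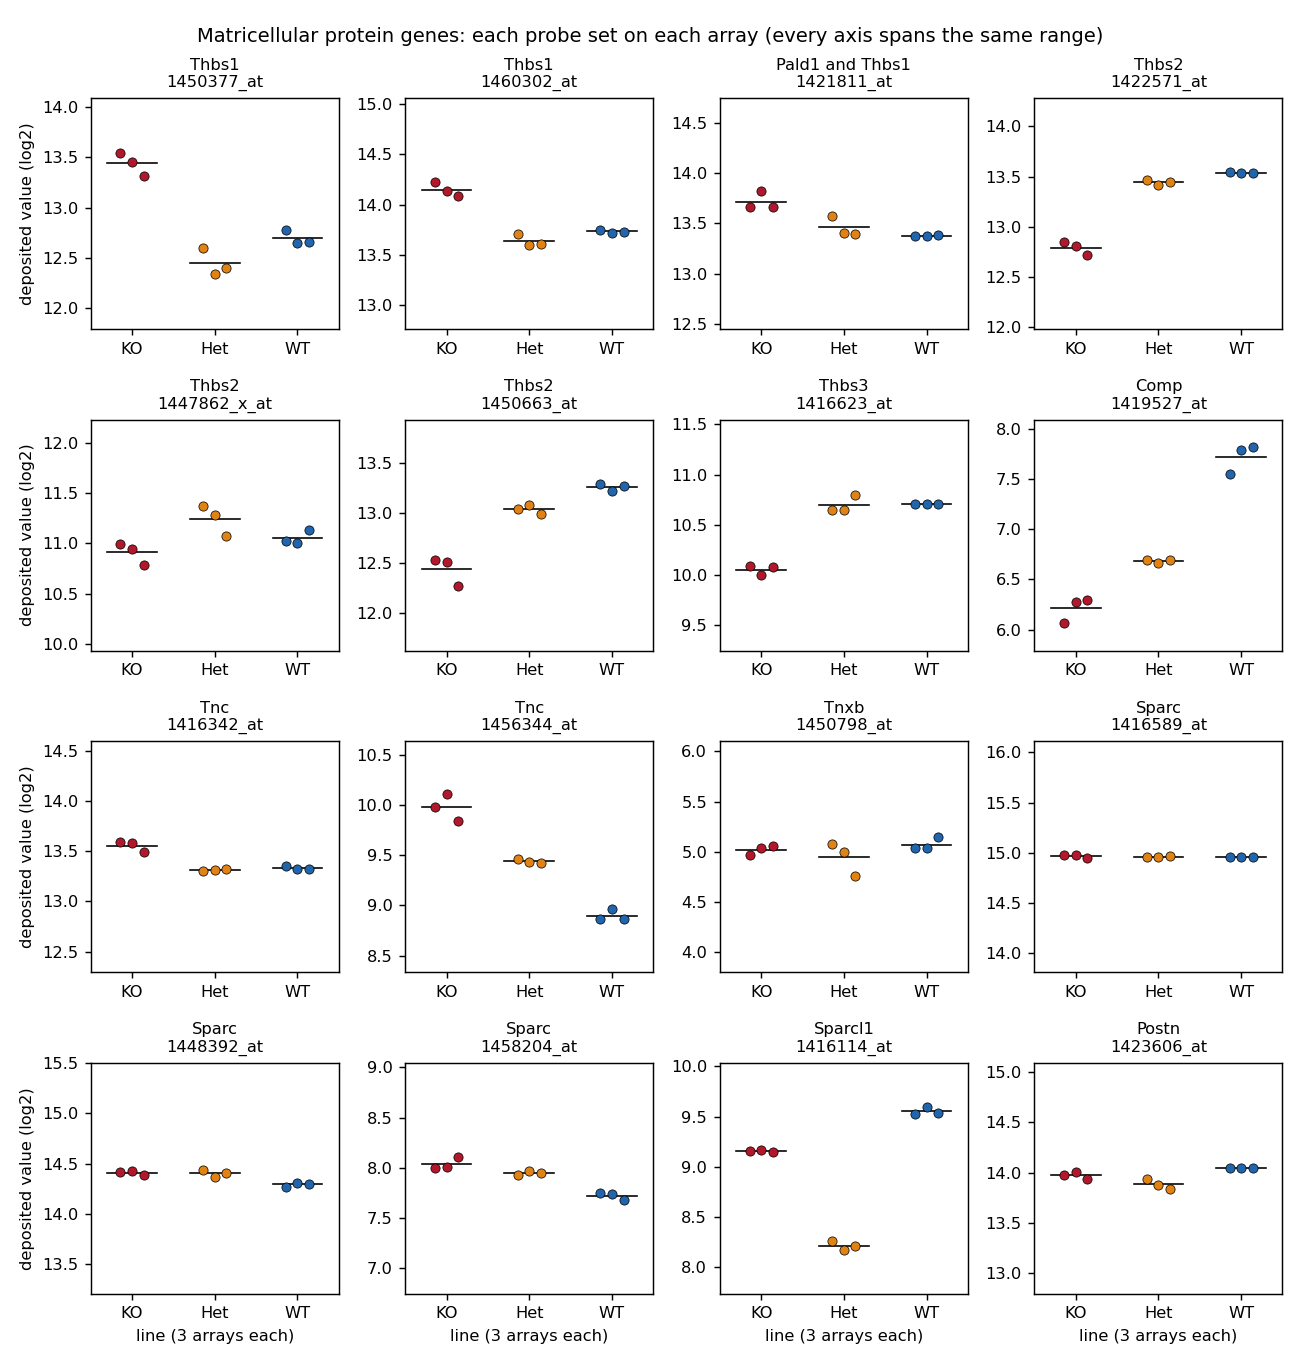
Deposited log2 values of the 16 probe sets on each of the 9 arrays, with a panel per probe set, KO, Het and WT from left to right, and a bar at the mean of each line; every vertical axis spans the same range. Comp (1419527_at) steps down toward KO, Sparcl1 (1416114_at) is lowest in Het, and Tnc probe set 1456344_at is highest in KO, while Postn and the chosen Sparc probe set (1416589_at) are nearly flat.

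Thrombospondins are large calcium-binding glycoproteins. Thbs1 and Thbs2 form trimers, carry type 1 repeats that bind the receptor Cd36, and restrain blood vessel growth, and Thbs1 can also activate latent TGF-beta. Thbs3 and Comp, with Thbs4, form pentamers and lack those repeats. Comp, cartilage oligomeric matrix protein, binds collagens and is made mainly in cartilage and tendon.

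Comp had the largest difference among the 8 genes in the KO line. It read 6.07, 6.27 and 6.29 on the KO arrays, 6.66, 6.69 and 6.69 on the Het arrays and 7.55, 7.79 and 7.81 on the WT arrays. The 3 lines did not overlap, and KO was lowest. Comp fell by 1.51 ± 0.075 (log2 difference ± SE, 3 arrays per line) in KO against WT, which is 2.84-fold (limma adjusted p = 2.48e-08). In Het against WT it fell by 1.04 ± 0.075, or 2.05-fold (limma adjusted p = 3.95e-06). That second call sits at the threshold, since the difference was -0.999 without WT replicate 2 and -0.99 without WT replicate 3. Between KO and Het the difference was -0.47 ± 0.075 (limma adjusted p = 3.2e-04), short of 2-fold. The KO mean of Comp, 6.21, lies under the filter's limit of 6.22, so Comp entered the test because it was higher in the other lines, and its call in KO supports nothing about the members as a group. The most abundant probe set of the deleted gene Oga read 6.03 to 6.08 in the same line. The means of its other probe sets there ran from 4.91 to 6.47, and that of Tnxb was 5.02. No detection calls were used, so whether the low end of the scale limits the KO values of Comp, and with them its differences from Het and WT, was not tested.

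The mean of the cartilage markers, like Comp, was lowest in KO and highest in WT. Of the 11 on the list 7 were tested, and their mean value was 7.61 to 7.63 in the KO line, 8.06 to 8.16 in the Het line and 8.31 to 8.34 in the WT line. Without Col9a1, left out after the values were seen, the mean of the other 6 was 7.79 to 7.84 in KO, 8.01 to 8.12 in Het and 8.15 to 8.18 in WT arrays, and the KO minus WT difference of the list mean was -0.35, against -0.71 with it. Without Col9a1 the Het minus WT difference of the list mean was -0.10. The cartilage collagen gene Col9a1 (-2.84) and Sox9, the main transcription factor of cartilage cells (-1.01), fell in KO against WT, and 5 were not called. In that comparison 2.58% of all genes fell. Of the 7, 5 passed the adjusted p as lower in KO and 0 as higher, where 53.1% of all genes passed. In Het against WT 3 passed as lower and 0 as higher, where 34.4% of all genes passed. Sox9 was short of 2-fold without KO replicate 3 (-0.92) and without WT replicate 3 (-0.97). For Col9a1 the value depended on the probe set: leaving out any Het or WT array changed which of its probe sets had the highest mean, and the difference was then between -0.97 and -0.73. Tendon markers, with 6 tested, averaged 9.86 to 9.91 in KO, 10.05 to 10.14 in Het and 10.31 to 10.36 in WT arrays. Fmod, a collagen-binding proteoglycan, fell in KO (-1.83). Against WT 3 of the 6 passed the adjusted p as lower in KO and 0 as higher, where 53.1% of all genes passed. The median tendon difference in that comparison was -0.19. In KO against Het 3 passed as higher and 3 as lower, where 52.3% of all genes passed. Macrophage markers moved further, with 15 of 15 called lower in KO against WT, where 2.58% of all genes were. Their mean values were 9.66 to 9.73 in KO, 11.08 to 11.15 in Het and 11.47 to 11.49 in WT arrays. Lyz2 differed by -1.89 and Cd68 by -2.63 in that comparison. The part of these cell types in the values of Comp was not tested, and in RNA from a whole culture fewer cells of a type and less RNA per cell cannot be told apart.

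Thbs1 was highest in the KO line. Its chosen probe set, 1460302_at, read 14.22, 14.14 and 14.09 on the KO arrays, 13.71, 13.60 and 13.61 on the Het arrays and 13.75, 13.72 and 13.73 on the WT arrays. The KO values lay above all others, and the Het values lay just below those of WT without overlap. The log2 difference between KO and WT was 0.42 ± 0.046 (limma adjusted p = 1.94e-05), which is 1.33-fold. Probe set 1450377_at gave a larger difference, with 13.55, 13.46 and 13.32 in KO, 12.60, 12.34 and 12.40 in Het and 12.77, 12.65 and 12.66 in WT. There KO minus WT was 0.75 ± 0.081 (limma adjusted p = 5.47e-05 over all probe sets) and KO minus Het 0.99 ± 0.081 (adjusted p = 1.05e-05), just under 2-fold. Without KO replicate 3 this KO minus Het difference was 1.05, and without Het replicate 1 it was 1.07, both past 2-fold. The probe set shared with Pald1 read higher in KO than in WT as well, by 0.335 ± 0.064 (adjusted p = 0.0025). The Het minus WT difference of Thbs1 at the chosen probe set did not pass the test, at -0.09 (95% interval -0.20 to 0.0089, limma adjusted p = 0.144). At 1450377_at it was -0.25 (limma adjusted p = 0.0558 over all probe sets), and at the probe set shared with Pald1 0.08 (adjusted p = 0.415). Neither passed, and the direction differs between the single-symbol probe sets and the shared one.

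Thbs2 and Thbs3 were lower in the KO line, while Thbs1 was higher there. Thbs2 at its chosen probe set, 1422571_at, read 12.84, 12.81 and 12.72 in KO, 13.47, 13.41 and 13.45 in Het and 13.54, 13.53 and 13.53 in WT. KO lay below both other lines without overlap, by -0.74 ± 0.041 against WT (limma adjusted p = 5.91e-08) and -0.65 ± 0.041 against Het (2.92e-07). Its probe set 1450663_at gave -0.82 ± 0.069 for KO minus WT (limma adjusted p = 8.09e-06 over all probe sets), and 1447862_x_at gave -0.14 (95% interval -0.33 to 0.04, adjusted p = 0.245). The suffix of 1447862_x_at marks probes that may also match other transcripts.

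Thbs3 read 10.09, 9.996 and 10.08 in KO, 10.65, 10.65 and 10.80 in Het and 10.71, 10.71 and 10.71 in WT. KO was again below both other lines, by -0.65 ± 0.049 against WT (limma adjusted p = 7.48e-07) and -0.64 ± 0.049 against Het (1.36e-06). The Het and WT values of Thbs3 overlapped, with a difference of -0.01 (95% interval -0.12 to 0.10). None of these Thbs2 and Thbs3 differences reached 2-fold, and at a 1.5-fold minimum both genes were called in KO against each other line.

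Het minus WT was -0.09 for Thbs2 at its chosen probe set (limma adjusted p = 0.107), -0.22 at 1450663_at (adjusted p = 0.0431 over all probe sets) and 0.19 at 1447862_x_at (adjusted p = 0.141), so its direction depends on the probe set.

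The start regions of Thbs2 and Thbs3 are shown because both genes were lower in KO at their chosen probe sets, a choice made after their values were seen. Each is the RefSeq window from 250 bases before to 50 bases after a transcript start, of assembly GRCm38.p6, read 5′ to 3′ on the gene's strand. Both strands were searched for TGANTCA (the AP-1 site), GGAATG (TEAD), CAGACA (Smad) and GGGCGG (Sp1), and matches are in capitals. None of the matches in the windows shown overlaps another. Over all 32851 RefSeq windows, 7.81% hold the AP-1 letters, 14.7% the TEAD, 21% the Smad and 35.7% the Sp1 letters.
Thbs2, chr17:14694213-14694512, minus strand: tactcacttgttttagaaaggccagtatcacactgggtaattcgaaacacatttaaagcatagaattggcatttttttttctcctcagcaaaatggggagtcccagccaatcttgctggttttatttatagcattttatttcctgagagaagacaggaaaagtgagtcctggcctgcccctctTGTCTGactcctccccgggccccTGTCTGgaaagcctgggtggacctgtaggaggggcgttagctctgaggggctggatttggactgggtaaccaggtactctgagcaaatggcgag
Thbs3, chr3:89214930-89215229, plus strand: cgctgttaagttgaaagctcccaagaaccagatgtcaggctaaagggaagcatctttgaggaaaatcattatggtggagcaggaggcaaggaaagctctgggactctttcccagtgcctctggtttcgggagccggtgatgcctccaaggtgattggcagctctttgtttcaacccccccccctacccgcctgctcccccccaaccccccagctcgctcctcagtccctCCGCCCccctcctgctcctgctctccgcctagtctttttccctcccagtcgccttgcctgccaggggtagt
Counted from the start site, Thbs2 has 2 Smad matches, at -67 and -44, and Thbs3 has 1 Sp1 match, at -21, all on the opposite strand. The 2 windows share no searched motif. RefSeq windows were matched for 6 of the 9 measured genes: Sparc, Thbs2, Thbs3, Tnc, Tnxb and Postn.

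Tenascins are large glycoproteins that weaken cell adhesion. Tnc is made by embryonic mesenchyme and by wound fibroblasts and binds integrins and the phosphatase Ptprz1, while Tnxb acts in the collagen network of skin and tendon. Both Tnc probe sets were highest in KO, but by different amounts. The chosen one, 1416342_at, read 13.59, 13.58 and 13.49 in KO, 13.30, 13.32 and 13.33 in Het and 13.35, 13.32 and 13.32 in WT. KO was above both other lines, by 0.22 ± 0.039 against WT (limma adjusted p = 5.54e-04), and Het and WT overlapped. The other, 1456344_at, read 9.98, 10.11 and 9.84 in KO, 9.47, 9.43 and 9.42 in Het and 8.87, 8.96 and 8.86 in WT, with no overlap between any lines. At that probe set Tnc rose in KO by 1.08 ± 0.067 (2.12-fold, limma adjusted p = 8.05e-07 over all probe sets), and Het was above WT by 0.54 ± 0.067 (adjusted p = 3.69e-04), under 2-fold. Together with Comp it made 2 of 16 member probe sets called between KO and WT, where 1.86% of all probe sets were called. With the mean of its probe sets Tnc was 0.65 above WT in KO and 0.26 above WT in Het, so the Het line's direction, -0.02 at the chosen probe set, depends on the probe set. Which transcripts the 2 probe sets detect was not tested.

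The start region of Tnc is shown because its probe set 1456344_at was called in KO against WT and a RefSeq window was matched. Tnc itself was not called in the test over genes. Capitals mark the same motifs. RefSeq lists another Tnc start a little further downstream.
Tnc, chr4:64046966-64047265, minus strand: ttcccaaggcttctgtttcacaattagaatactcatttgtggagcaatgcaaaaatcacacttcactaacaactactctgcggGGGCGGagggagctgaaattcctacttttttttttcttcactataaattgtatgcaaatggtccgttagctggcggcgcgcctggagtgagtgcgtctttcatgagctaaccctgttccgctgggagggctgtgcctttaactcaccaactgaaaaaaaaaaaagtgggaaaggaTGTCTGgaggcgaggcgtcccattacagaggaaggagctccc
This window holds 1 Sp1 match, at -167, and 1 Smad match, at 9, on the opposite strand. Het arrays lay between KO and WT at probe set 1456344_at and at WT level at 1416342_at, and the letters shown cannot say which pattern belongs to this start. Tnxb stayed low, at 4.97, 5.03 and 5.06 in KO, 5.08, 4.996 and 4.76 in Het and 5.03, 5.03 and 5.15 in WT. All 3 lines overlapped, and KO minus WT was -0.05 (95% interval -0.22 to 0.12, limma adjusted p = 0.683 over all probe sets).

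Sparc binds collagen and counteracts cell spreading, and Sparcl1, also called hevin, is its close relative in vessel walls, brain and other stroma. The chosen Sparc probe set, 1416589_at, hardly differed between lines, with 14.98, 14.98 and 14.95 in KO, 14.96, 14.96 and 14.97 in Het and 14.96, 14.96 and 14.96 in WT. KO minus WT was 0.0099 (95% interval -0.06 to 0.08, limma adjusted p = 0.823). The highest value on any array ran from 15.05 to 15.15, so this probe set lies near the top of the deposited scale, and whether a rise could still show there was not tested. Probe set 1458204_at of Sparc read 8.003, 8.003 and 8.11 in KO, 7.93, 7.96 and 7.95 in Het and 7.75, 7.74 and 7.68 in WT. There KO was above WT by 0.32 ± 0.049 (limma adjusted p = 6.47e-04 over all probe sets) and Het above WT by 0.22 ± 0.049 (adjusted p = 0.00917), both under 2-fold. At 1448392_at the differences from WT were 0.12 in KO (adjusted p = 0.072) and 0.11 in Het (adjusted p = 0.107).

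Sparcl1 was lowest in the Het line and not in KO. It read 9.16, 9.17 and 9.15 in KO, 8.26, 8.17 and 8.21 in Het and 9.53, 9.60 and 9.53 in WT. The 3 lines did not overlap. Sparcl1 fell in Het against WT by 1.34 ± 0.039, or 2.53-fold (limma adjusted p = 7.14e-09), and this call held under each alternative processing and without each array. KO was below WT by -0.39 ± 0.039 (adjusted p = 8.34e-06) and above Het by 0.95 ± 0.039 (1.28e-08), both under 2-fold. Set against the mean of KO and WT, Het was lower by -1.14 ± 0.034 (limma adjusted p = 5.22e-09). In that comparison Sparcl1 was 1 of 8 genes called, and 0.139% of all genes were called. Markers of endothelial cells, which can make Sparcl1, were mostly below the filter, with 1 of 7 tested. Smooth muscle and pericyte markers averaged 11.75 to 11.79 in KO, 11.20 to 11.27 in Het and 10.83 to 10.89 in WT arrays, so Het lay between the other lines there. Neural and glial markers, 6 tested, averaged 8.496 to 8.53 in KO, 8.73 to 8.87 in Het and 8.55 to 8.62 in WT arrays. They went both ways: in Het against WT 3 passed the adjusted p as higher and 2 as lower, where 34.4% of all genes passed. Whether any of these cell types had a part in the Sparcl1 values was not tested.

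Periostin, which Postn encodes, links collagen, tenascin-C and integrins in connective tissue under load. It read 13.98, 14.01 and 13.93 in KO, 13.94, 13.87 and 13.84 in Het and 14.05, 14.05 and 14.04 in WT. WT lay above both other lines, by small amounts: KO minus WT was -0.07 (95% interval -0.16 to 0.02, limma adjusted p = 0.149) and Het minus WT -0.16 ± 0.040 (adjusted p = 0.00935).

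**Figure D2:**
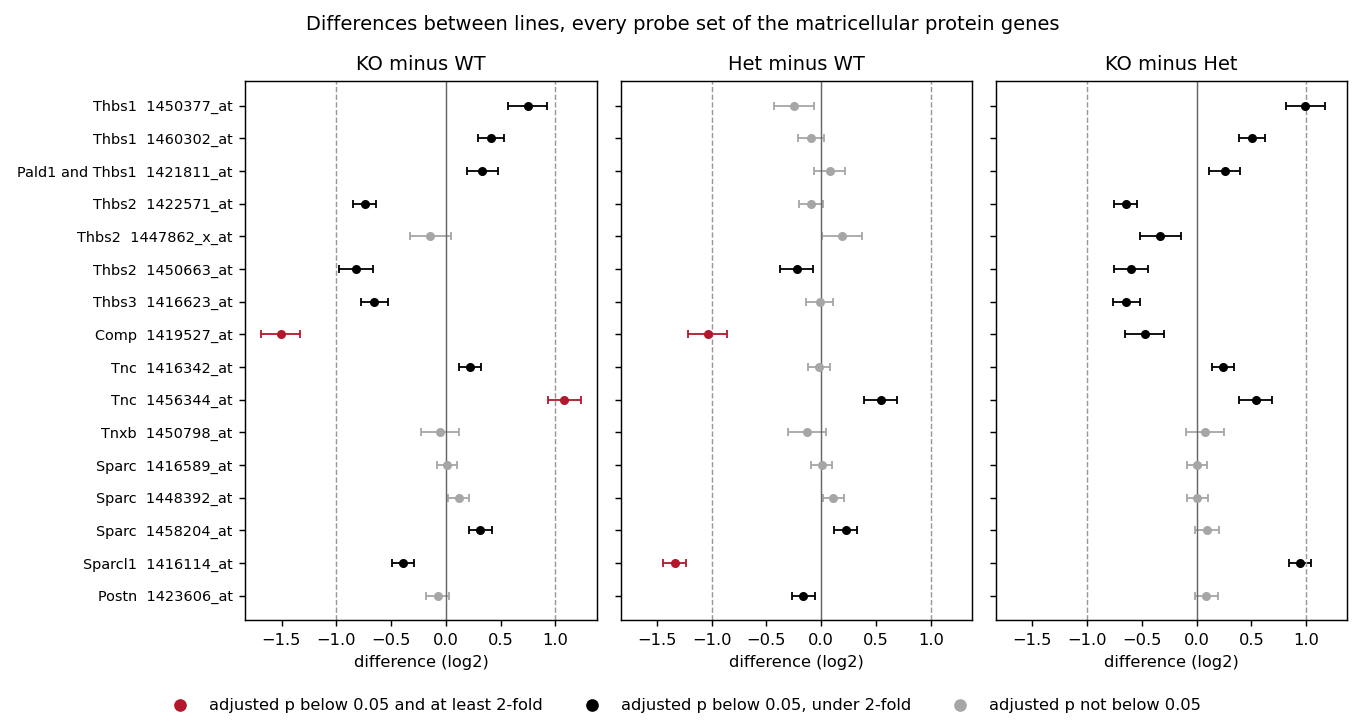
Differences between lines on the log2 scale for each of the 16 probe sets in the fit over all probe sets, with 95% confidence intervals from the spread between arrays; dashed lines mark 2-fold, red points are called, black points passed the adjusted p alone and grey points did not. In KO minus WT, Comp (-1.51) and Tnc probe set 1456344_at (1.08) lie beyond 2-fold, and in Het minus WT, Comp (-1.04) and Sparcl1 (-1.34) do.

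The order of the 3 lines differed among the 8 genes. At their chosen probe sets, Het lay between KO and WT for Comp, Thbs2, Thbs3 and Sparc by line mean, and for Thbs2, Thbs3 and Sparc its mean was within 0.1 of WT. Its mean was the lowest of the 3 for Sparcl1, Thbs1, Tnc and Postn, but Sparcl1 was the only one of these 4 for which both differences, Het minus WT and KO minus Het, passed the adjusted p. Tested against the mean of KO and WT, Het was higher for Thbs2 (0.28, limma adjusted p = 1.51e-04) and Thbs3 (0.31, 2.16e-04) and lower for Thbs1 (-0.30, 2.03e-04), Comp (-0.28, 0.00558), Postn (-0.13, 0.0138) and Tnc (-0.13, 0.0105), all under 2-fold. With Sparcl1 that made 7 of 8 past the adjusted p, where 40.4% of all genes passed. The value for Comp rests on its KO mean under the filter's limit, and without Comp the count is 6. Both comparisons with WT share the WT arrays, so the values are given side by side and no correlation is drawn between them.

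For Comp and Sparcl1 the genes most like them were taken as those with the smallest root mean square distance over the 9 arrays, after each gene was centred on its own mean, among 12954 other genes. Nearest to Comp were Ifit3, an interferon-induced gene (distance 0.10 on the log2 scale), Enpp5 (0.14) and the potassium channel gene Kcnj15 (0.15). Ifit3 averaged 8.11 ± 0.083 in KO, 8.48 ± 0.017 in Het and 9.45 ± 0.12 in WT (SD, n = 3 arrays each). Nearest to Sparcl1, looked up after its values were seen, were Dvl2, a Wnt pathway adaptor (0.17), Ppp1r3e, a glycogen-targeting phosphatase subunit (0.19), and Fabp4, a fatty acid binding protein of adipocytes and macrophages (0.21). Dvl2 averaged 8.96 ± 0.019 in KO, 8.19 ± 0.17 in Het and 9.20 ± 0.071 in WT. With 3 lines, many genes can share such a pattern, and the distances are descriptions.

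Other matricellular genes and members of the same families were taken as a list of 28, of which 20 passed the filter. The median KO minus WT difference was -0.12, and 3 of the 20 fell, with no gene of the list called higher. Among all genes 2.58% fell and 0.988% rose in that comparison, and these shares hold beside the receptor and partner counts too. Tgfbi, a TGF-beta-induced integrin ligand, fell (-2.01 ± 0.035), and so did Lgals3, galectin-3, a sugar-binding protein abundant in macrophages (-2.00 ± 0.039), and Ccn3, a growth-restraining CCN protein (-1.36 ± 0.042). Lgals3 was lower in KO, as were the macrophage markers given above, and the part of macrophages in its values was not tested. Among those not called, Ecm1 (0.95), Ccn2 (0.84) and Ccn1 (0.82) were higher in KO with adjusted p-values past the threshold, and Angptl4 (-0.92) was lower. Ccn1 and Ccn2 are integrin ligands that fibroblasts induce when they spread or contract. In Het against WT, where 0.201% of all genes fell, 1 of 20 fell: Angptl4, a lipase inhibitor (-1.61 ± 0.055). Its probe set can match several transcripts, and no relative was called in that comparison once such probe sets were left out. Thbs4, the remaining pentameric thrombospondin and also on the tendon list, averaged 8.38 ± 0 in KO, 7.84 ± 0.027 in Het and 8.71 ± 0.039 in WT (SD, n = 3 arrays each). Like Sparcl1 it was lowest in Het, by -0.87 ± 0.037 against WT, short of 2-fold, and its 3 KO arrays hold one and the same value.

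Receptors of matricellular proteins, 21 tested of 22, had a median KO minus WT difference of 0.02, with 2 that rose and 2 that fell. Itga4, the alpha-4 integrin subunit (1.27 ± 0.048), and Cd44, which binds hyaluronan and osteopontin (1.06 ± 0.053), rose. Cd44 was just short of 2-fold with the mean of its probe sets (0.996). Stab1, a scavenger receptor for Sparc found on macrophages (-2.21 ± 0.041), and Cd36, the thrombospondin receptor (-1.65 ± 0.098), fell. Both are also made by macrophages, whose markers fell in the same comparison. The part of macrophages in the values of Stab1 and Cd36 was not tested. In Het against WT 0 of 21 receptors were called in limma, where 0.255% of all genes were called. Of the 21, 16 had an unadjusted p below 0.05, and the largest differences were Cd36 (-0.76) and Cd44 (0.49).

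Matrix and growth factor partners, 26 tested of 27, had a median KO minus WT difference of 0.04, with 2 that rose and 3 that fell. Ltbp2, a microfibril protein (1.05 ± 0.038), and the gelatinase gene Mmp9 (1.03 ± 0.070) rose, while Col9a1, the stromelysin gene Mmp3 (-1.23 ± 0.085) and the cartilage matrix gene Matn4 (-1.01 ± 0.077) fell. Several of these sit at the 2-fold limit: Matn4 was within it without KO replicate 1 (-0.97) or WT replicate 2 (-0.99), and Mmp9 without WT replicate 1 (0.95). In Het against WT 0 of 26 partners were called in limma, where 0.255% of all genes were called. Of the 26, 17 had an unadjusted p below 0.05, with Col9a1 at -0.95 and Mmp3 at -0.78. At the other Col9a1 probe set the Het minus WT difference was -0.54.

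**Figure D3:**
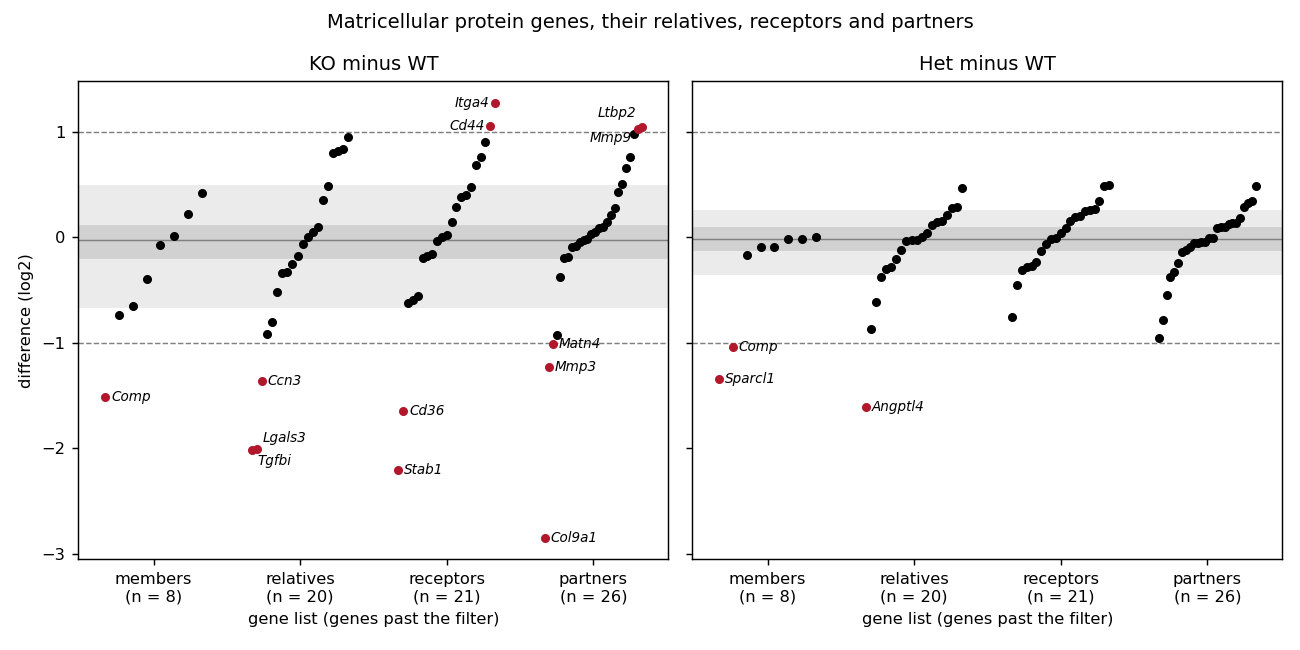
Log2 differences of the 8 members, 20 relatives, 21 receptors and 26 partners that passed the filter, for KO minus WT and Het minus WT, each list sorted by value; named red points are called, dashed lines mark 2-fold, and the darker and lighter grey bands hold inner and outer percentile ranges of all genes. Tgfbi, Lgals3, Stab1 and Col9a1 lie at or beyond -2 in KO minus WT, and in Het minus WT Comp, Sparcl1 and Angptl4 are the called genes of these lists.

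**Figure D4:**
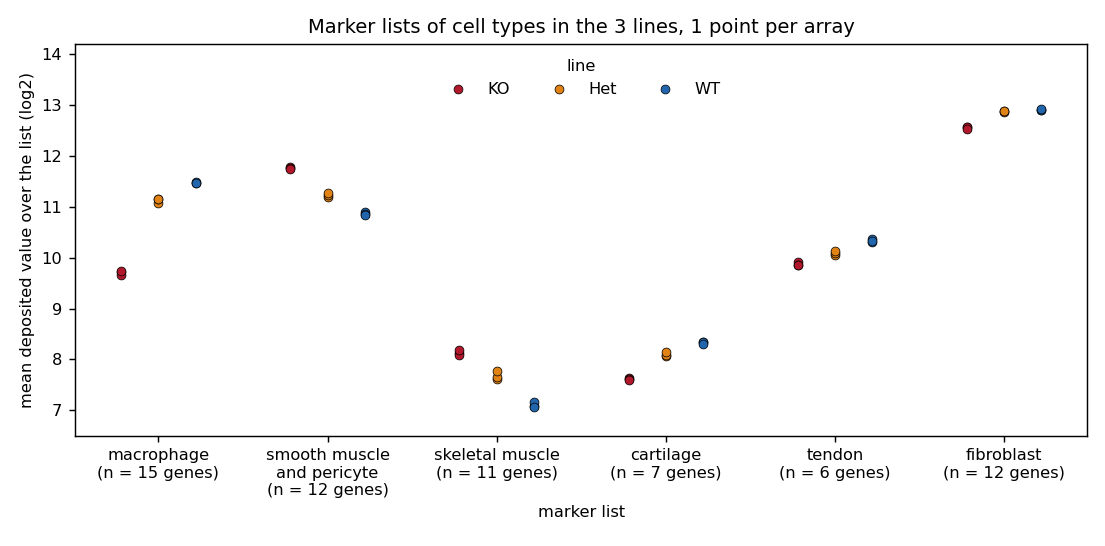
Mean deposited log2 value over the tested genes of 6 cell type marker lists, a point per array, with KO left of Het and Het left of WT. Macrophage, cartilage and tendon lists are lowest in KO (9.66 to 9.73, 7.61 to 7.63 and 9.86 to 9.91). Both muscle lists are highest there. The cartilage list holds Col9a1, without which its KO arrays lie at 7.79 to 7.84. The tendon list holds Fmod (-1.83 in KO minus WT), and its median KO minus WT difference was -0.19.

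Among other marker lists, skeletal muscle genes had 7 of 11 that rose in KO against WT and averaged 8.08 to 8.18 in KO, 7.61 to 7.77 in Het and 7.06 to 7.17 in WT arrays. Of 4 tested epithelial and mesothelial genes 2 rose in KO against WT, Krt18 (1.68) and Krt19 (1.26). For both lists, the share of all genes that rose in that comparison was 0.988%. Osteoblast markers, 3 tested, averaged 6.78 to 6.87 in KO, 6.62 to 6.72 in Het and 6.66 to 6.70 in WT arrays, with 0 called in limma and 1 at an unadjusted p below 0.05 in KO against WT. The part of any of these in the values of Thbs1, Thbs2, Thbs3, Tnc and Sparcl1 was not tested. In the gene order of GRCm38.p6, 13 of the 18 nearest protein-coding neighbours of the 9 measured genes were tested, with KO minus WT differences from -0.40 to 0.99. Of these 0 were called in limma, where 3.56% of all genes were called, and 8 had an unadjusted p below 0.05. The largest was Pappa, a protease of IGF-binding proteins that lies next to Tnc, and Smoc2, a Sparc family gene next to Thbs2, was at -0.34 in KO and -0.38 in Het.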

How the data were processed

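Per the labels' protocols, Trizol RNA of 3 MEF lines went through DNase before biotin labelling. The deposited values are log2 signals for 45101 probe sets. Their base was inferred from a range of 3.25 to 15.15. GCOS and Partek are named in the submitters' processing notes; background correction, normalization and summarization are not stated in the labels or headers. Medians of single arrays were 6.87 to 6.95, and no further normalization was done.

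The 64 control probe sets were left out. The supplied platform annotation gave 1 symbol to 34945 of the rest, several to 932 and none to 9160. After the filter at 6.22, 27022 probe sets remained. R 4.3.3 with limma 3.58.1 (lmFit, eBayes) fitted 3 line means to all 9 arrays. A second fit used all 45037 probe sets. Arrays have no read depth, and precision is limited by how few arrays and lines there are. The steps were tested on simulated data. The members and lists were chosen with earlier results of these data known. Genes named are Oga, all members, up to 4 called genes per list (up to 2 where none was called), Lyz2, Cd68 and the nearest patterns; any other was named after its values were seen. Alternatives were quantile normalization, median centring, other filters, other probe set choices, 1.5-fold or no fold minimum, the replicate number as a block, only the compared lines, trended robust variance, and leaving out single arrays. Python 3.11.15 and matplotlib 3.10.9 drew the figures.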

Additional observations from a re-analysis of the deposited data

How the results depend on the processing

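With 1 culture per genotype no alternative separates genotype from culture, and each result rests on 3 arrays per line. Comp and Sparcl1 kept their direction in every comparison and alternative run. With the lowest 60% of probe sets left out Comp was no longer tested, so the members called were 0 between KO and WT and 1 between Het and WT. At a 1.5-fold minimum the genes called were 3 between KO and WT and 3 between KO and Het, of 1241 and 895 among all genes, and among all genes 236 for Het minus WT and 155 for Het minus the mean of KO and WT. Of the 16 member probe sets 6, 5 and 2 were called there for KO minus WT, KO minus Het and Het minus the mean. The share over all probe sets at that minimum was not computed, so nothing is read from these counts. With no fold minimum the genes called were 6, 6 and 7 for the same comparisons, of 6881, 6782 and 5232 among all genes, against 4458 for Het minus WT, and the member probe sets called were 11, 11, 10 and, for Het minus WT, 6 of 16, where 28.9%, 26.6%, 22% and 21% of all probe sets passed. The counts over all genes as reported were 462, 259, 18 and 33 in that order.

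Median centring called 1 probe set between KO and Het, 1450377_at of Thbs1 (1.05). Leaving out each array gave 1 to 2 genes and 1 to 2 probe sets called for Het minus WT, lowest without WT replicate 2 or 3, and 0 to 1 probe sets for KO minus Het. Some differences near 0 turned sign. Thbs3 in Het minus WT did so with quantile normalization (0.033) and over left-out arrays (-0.063 to 0.014), and Sparc in Het minus WT with median centring (-0.034). Over left-out arrays so did the KO minus Het difference of Sparc probe set 1448392_at (-0.0092 to 0.025) and Tnxb probe set 1450798_at (-0.015 to 0.144). The cause of these turns was not tested. For Tnc, Het minus WT was 0.26 with the mean of its probe sets, which gave -0.02 (1416342_at) and 0.54 (1456344_at). Among list genes, Matn4 and Sox9 in KO minus WT were short of 2-fold with quantile normalization (-0.97 and -0.96) and median centring (-0.997 and -0.99), Mmp9 with the mean of its probe sets (0.998), and Itga4 in KO minus Het with that mean (0.74). Deviations of same-numbered arrays correlated from -0.18 to 0.21, with 2 of 9 pairs over 0.1, the mark set for pairing. Those were KO and WT of replicate 1 (0.21) and KO and Het of replicate 3 (0.19). The values do not settle whether replicate numbers pair the arrays. With the replicate number as a block, the members called were 1 for KO minus WT, 2 for Het minus WT and 0 for KO minus Het, and all genes called 462, 33 and 259, as without it. Each replicate number occurs once per line, so the block leaves every line difference unchanged, and these counts cannot show whether the arrays were paired.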

Other observations

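Of the 16 probe sets, 4 hold a value that occurs more than once among the 9 arrays, 6 repeats among 144 values: the chosen probe sets of Sparc, Thbs3 and Comp, and that of Tnxb. Some repeats fall within a line, such as the 6.69 of Comp on Het replicates 1 and 3.

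For Sparc, Thbs1 and Tnc, the single-symbol probe set with the highest mean gave the smallest KO minus WT difference: 0.0099 against 0.12 and 0.32 for Sparc, 0.42 against 0.75 for Thbs1, and 0.22 against 1.08 for Tnc. For Thbs2, lower in KO, the chosen probe set gave -0.74, against -0.82 and -0.14 for the others.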
